A study of Mus musculus with 7 samples.

Results

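Langerhans cells of 2 origins in mouse skin were compared: cells that had grown from transplanted bone marrow, and cells of the host that had outlived irradiation. The marrow-derived cells were those that the deposited annotation of the donor table names resident monocyte-derived Langerhans cells (resident mLC, cluster Res_mLC). They numbered 1651 of 11899 donor cells, with 105, 1175, 51 and 320 cells in donor replicates 1 to 4. The host cells were those of clusters 1, 2 and 3 of the host table with at least 500 detected genes, 487 of 781 host cells, with 239, 94 and 154 cells per cluster. Both populations together held 2138 of the 18106 cells of the series.

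All mice were male CD45.2 C57BL/6 hosts that received bone marrow of female CD45.1 C57BL/6 donors (bone marrow transplantation, BMT) after lethal irradiation, and epidermis was taken 3 weeks later. Both kinds of cell were sorted as CD11b+MHCII+ epidermal cells. Donor replicates 1, 2 and 3 carry the label BMT, and donor replicate 4 carries the label BMT plus T cells. The host library is grouped here by its title, host CD11b+MHCII+. The study describes both donor and host cells as taken from skin with graft-versus-host disease. The design text of the series does not keep the transplants apart by T cells, so replicate 4 is used here only as a donor library. The labels give neither the age of the mice nor how many were pooled into a library, so p values below measure the spread between these libraries. The host cells came as 1 library, and origin, sex, sort, library and table cannot be told apart in any difference below.

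Langerhans cells are the antigen-presenting cells of the epidermis. They settle in the skin before birth, renew there, hold on to keratinocytes through adhesion molecules such as E-cadherin and EpCAM, and carry Langerin, a C-type lectin encoded by Cd207 that binds sugars of microbes. They load peptides on MHC class II molecules under the control of the transactivator CIITA and can leave for the lymph node. When they are lost, monocytes can enter the epidermis and take up a Langerhans cell programme, for which the transcription factors RUNX3, ID2 and PU.1 (encoded by Spi1) and the growth factor TGF-beta are known to matter.

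Genes of antigen presentation and of the interferon response are described below, and short promoter stretches of members that carry a known element are shown first. Each is 30 bases of mouse genome GRCm38.p6 taken from the 250 bases before the start of the RefSeq gene, written 5′ to 3′ on the strand of the gene. Capitals mark the letters searched on both strands, CTGATTGG for class II genes (the Y box, which holds the reverse complement of CCAAT) and GAAANNGAAA for interferon response genes.
H2-Aa, chr17:34287856-34287885, minus strand: aagagaattttCTGATTGGttctggcgagt
H2-Eb1, chr17:34305794-34305823, plus strand: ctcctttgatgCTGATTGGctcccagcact
Ifit3, chr19:34583363-34583392, plus strand: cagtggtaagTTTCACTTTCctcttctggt
Bst2, chr8:71537583-71537612, minus strand: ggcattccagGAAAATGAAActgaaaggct
The class II letters were in 4 of the 8 class II members matched to a promoter, against 4.07% of all 27025 promoters. The interferon letters were in 8 of the 17 type I interferon response members matched, against 3.04% of all promoters. Each list was searched for its own letters only, and a match is a description of the sequence.

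The host library stood apart from the donor libraries in depth and in the kind of RNA it held. Resident mLC held 1008688, 9096857, 914921 and 3897262 unique molecular identifiers (UMIs, 1 per captured molecule) in replicates 1 to 4, at medians of 10082, 7343, 18027 and 12852.5 per cell. Host clusters 1 to 3 held 2652410 UMIs at a median of 4522 per cell. The median share of mitochondrial UMIs was 1.32 to 2.20% in the donor libraries and 16.5% in the host cells, of which 162 of 487 were above 20%, against 25 of 1651 resident mLC. No cell barcode was shared between any pair of the 5 libraries. Of the host cells in clusters 1 to 3, 120 had fewer than 500 genes and were left out. This took clusters 1, 2 and 3 from 276, 170 and 161 cells to 239, 94 and 154. Most of the cells left out were thus of cluster 2. The 11 host cells with 400 to 499 genes had mean levels of 14.8 UMIs per 10000 for Cd207 and 6.01 for Epcam, and the 5 cells with 500 to 599 genes had 16.3 and 7.10. Krt14, a keratin gene, was at 37.9 below the cut and 0 above it, and Bmt2 at 207 and 99.8.

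Levels below are mean UMIs per 10000 UMIs of the 13553 genes that the donor and host tables both list (CP10K). Genes listed in only 1 of the tables, among them Irf8 and B2m, have no value here. The shared genes held a median of 89.9 to 93.7% of the UMIs of a resident mLC and 61.2% of those of a host cell. Differences are host minus resident mLC in log2(CP10K + 0.1), from limma over the 4 donor and 1 host libraries, for the 9270 genes with a mean level of at least 0.1 in the populations. A gene was called at an absolute difference above 2 and an adjusted p under 0.05. The host library was assumed to vary like the donor libraries, and an exact permutation of 1 against 4 libraries cannot give a p under 0.2. Within the 9119 genes with a RefSeq gene length, the difference followed the length of the gene. Its median was -0.88 for genes under 3 kb and 1.83 for genes over 300 kb, and -0.23 and 1.03 with host cluster 2 alone. Keratinocytes were sequenced in a table of their own, and host cluster 5, whose levels ranked like theirs (Spearman coefficients of 0.852 and 0.861), gave medians of -0.20 and 0.45 for the same length classes against them. The part of gene length and of mitochondrial and nuclear RNA in single differences was not tested beyond the values given beside them.

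**Figure D1:**
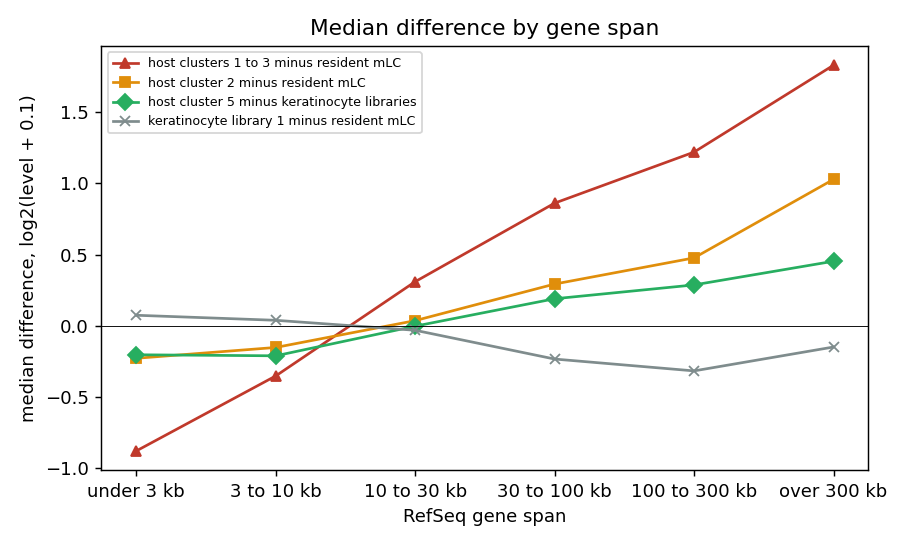
Median difference in log2(CP10K + 0.1) on the vertical axis for genes in 6 classes of RefSeq gene length, for host clusters 1 to 3 and host cluster 2 against resident mLC, host cluster 5 against the keratinocyte libraries, and keratinocyte library 1 against resident mLC. The medians of host clusters 1 to 3 rise from -0.88 in the shortest class to 1.83 in the longest, while those of keratinocyte library 1 against resident mLC run from 0.07 to -0.15.

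The labels were first checked against genes that differ by sex, since the hosts were male and the marrow female. Of the 4 Y-linked genes listed in both tables, the host cells held all 4 and the donor cells very few. Ddx3y, a Y-linked RNA helicase, was at 0, 0.0053, 0.028 and 0.076 CP10K in donor replicates 1 to 4 and at 2.19 in the host cells. Kdm5d, a Y-linked histone demethylase, was at 0 in donor replicates 1 to 3 and at 0.0035 in replicate 4, against 1.18 in the host cells. Ddx3y, Kdm5d and Eif2s3y were called higher (differences of 4.21, 3.66 and 3.28). Uty was not (3.51, adjusted p = 0.0589 by limma), with 0.751 CP10K in donor replicate 3 and at most 0.0073 in the other donor libraries, against 1.89 in the host cells. The levels of these genes were in the direction of the labelled sex in every library, and the donor value of Uty in replicate 3 stood apart. Summed over the 4 genes, the donor libraries held 0 to 0.999 CP10K and the host cells 6.63. Donor levels of Eif2s3y alone are not given here.

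Langerin was present in both populations, and its level differed between the host clusters. Cd207 (chr6:83671207-83677857) was at 1.54, 6.18, 11.4 and 10.4 CP10K in resident mLC of replicates 1 to 4 and at 6.83 in the host cells. The host value lay within the donor range, and the difference was 0.23 with a standard error (SE) of 1.03 (adjusted p = 0.874 by limma). Within the host cells, Cd207 was at 21.7 in cluster 2, 2.49 in cluster 1 and 4.49 in cluster 3. Cd207 ranked 146 among the shared genes both in the mean of the donor libraries and in the host cells. At a common depth of 2000 UMIs per cell, which 1506 resident mLC and 348 host cells reached, at least 1 UMI of Cd207 was found in 18.8, 50.2, 61.7 and 63.6% of resident mLC. The host share was 46.8% (exact 95% interval 41.5 to 52.2%), with 83.1% in cluster 2, 32.6% in cluster 1 and 50% in cluster 3. The share in keratinocytes, which lack Langerin, was 0.035 and 0.039%. Without thinning, the shares were 40, 67.6, 78.4 and 75% in the donor libraries and 53.4% in the host cells. These and the later intervals and limits cover counting error only, and 25, 68, 4 and 48 donor cells and 139 host cells were too shallow for the common depth.

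Epcam and Mfge8 were abundant in resident mLC and lower in the host cells. Epcam (chr17:87635979-87651127), which encodes the adhesion molecule EpCAM, was at 28.6, 20.9, 24.4 and 26.2 CP10K in the donor libraries and at 3.68 in the host cells. The host cells lay below every donor library, and the difference was called (-2.73, SE 0.23, adjusted p = 0.000281 by limma). In host cluster 2, Epcam was at 10.0 and the difference was -1.30, which does not pass the threshold of size. The share of cells with a UMI of Epcam at the common depth was 95.8 to 100% in the donor libraries and 37.9% in the host cells, with 71.2% in cluster 2. Keratinocytes, which also make EpCAM, gave 16.7 and 14.2%. Mfge8, which encodes a secreted protein that bridges dying cells to phagocytes, was at 36.3, 63.8, 57.4 and 48.1 CP10K in the donor libraries and 19.2 in the host cells, of which cluster 2 had 41.5. Its difference of -1.39 was not called. Cd24a, a surface glycoprotein of Langerhans cells, was at 3.55 to 5.44 in the donor libraries and at 1.56 in the host cells, again with the highest host value in cluster 2 (3.53). Cdh1, which encodes E-cadherin, was at 9.34, 15.3, 5.04 and 5.65 and at 3.49 in the host cells, a difference of -1.18 (SE 0.60) that did not pass the test.

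Over the whole list of Langerhans cell identity genes, 2 of 11 members tested were called lower in the host cells and 0 higher. The background over all genes tested was 3.24% called lower and 13.2% called higher. The other lower member was Dcstamp, which encodes a transmembrane protein of dendritic cells and osteoclasts, at 0.967, 0.858, 0.411 and 0.709 CP10K in the donor libraries and at 0.048 in the host cells. The median difference of the list was -0.76, beside 0.56 over all genes, and with cluster 2 alone -0.40 beside 0.11. In the epithelial adhesion list 0 of 12 members tested were called higher and 1, Epcam, lower, and the median of 0.55 was that of all genes. The annotation of both tables was made from these same cells, so the presence of identity genes describes the clusters and is not independent evidence of their names. By the fixed markers, clusters 1, 2 and 3 held all 5 Langerhans cell markers with a value, and cluster 2 held the highest level of Cd207 and Epcam.

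**Figure D2:**
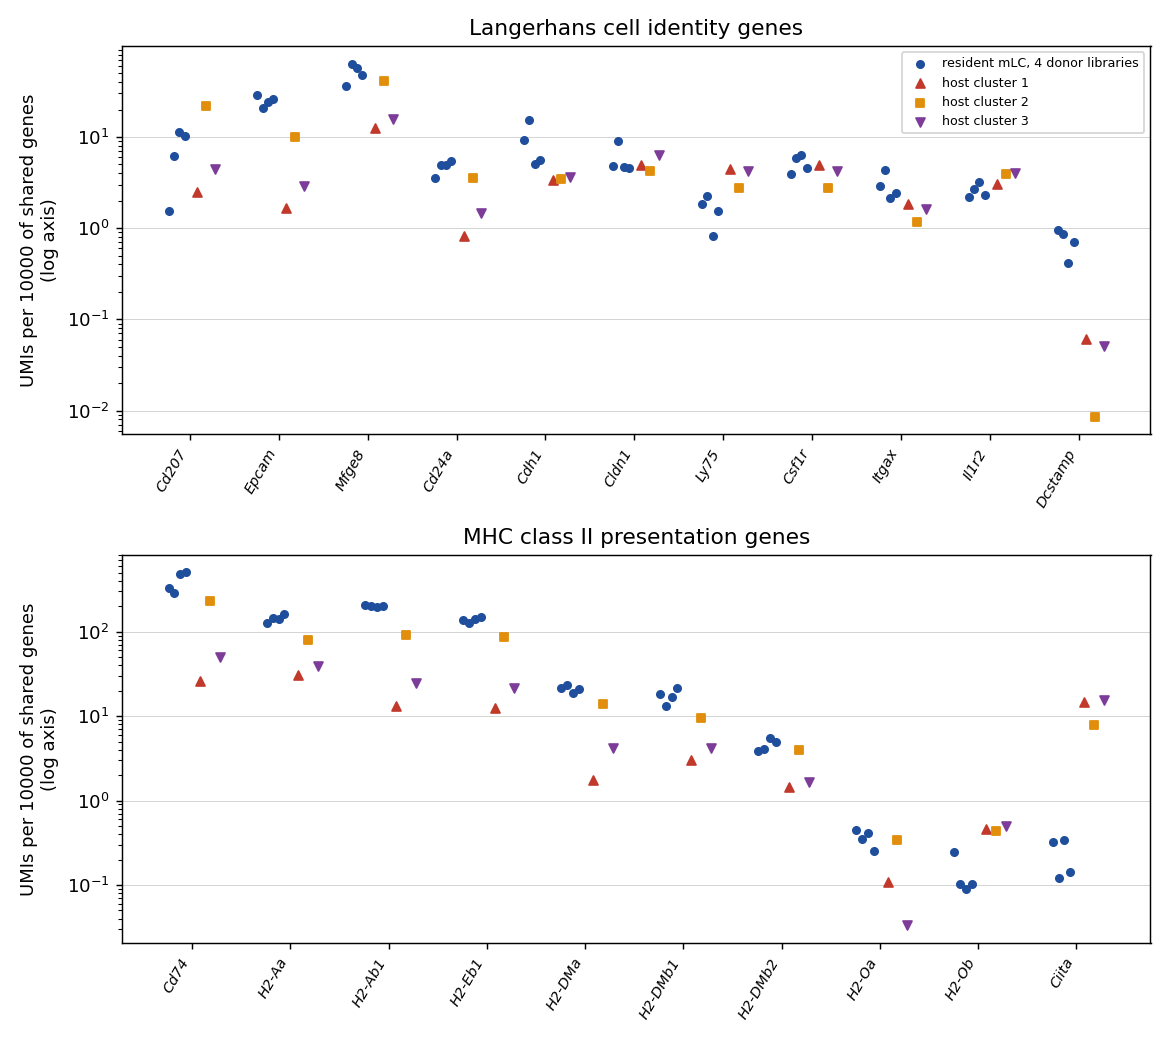
Levels in UMIs per 10000 of shared genes (log axes) of Langerhans cell identity genes (top) and MHC class II presentation genes (bottom), with 1 point for each of the 4 donor libraries and 1 for each of host clusters 1, 2 and 3. For Cd74, H2-Ab1, H2-Eb1 and Epcam, cluster 2 lies between the donor libraries and clusters 1 and 3, and all 3 clusters lie above the donor libraries for Ciita.

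By rank over all genes, host cluster 2 was nearer to resident mLC, and to every other population compared, than host clusters 1 and 3 were. Across the 9270 genes, Spearman coefficients between pairs of donor libraries within resident mLC were 0.855 to 0.949. Between host clusters 1 to 3 and the donor libraries they were 0.394 to 0.470. Taken apart, host cluster 2 gave 0.635 to 0.659, cluster 1 gave 0.253 to 0.344 and cluster 3 gave 0.333 to 0.413. With the keratinocyte libraries, cluster 2 gave 0.432 and 0.443, above the values of clusters 1 and 3 with resident mLC, and host cluster 5 gave 0.553 to 0.585 with resident mLC. Among the host clusters, 1 and 3 were close to each other (0.924) and both were farther from 2 (0.651 and 0.718). These coefficients are descriptions across genes, which are not independent replicates, and host values share a library, while donor values share a table. The genes were filtered on the mean level of resident mLC and host cells, so genes high only in the host cells entered. The median coefficient of host clusters 1 to 3 was 0.427 with this filter, 0.691 without a filter and 0.0509 with a filter at 0.5 CP10K. For cluster 2 with its own filter it was 0.605.

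Among the donor clusters, resident mLC ranked nearest to the host cells, over genes chosen by the levels of these same populations. For host clusters 1 to 3 the coefficients were 0.350 to 0.397 with cycling mLC (Cyc_mLC), 0.364 to 0.371 with migratory mLC (Mig_mLC), 0.309 to 0.338 with monocytes (Mono) and 0.336 to 0.371 with Mrc1+ macrophages, and 0.182 and 0.197 with the keratinocyte libraries. The ranges of resident mLC and of cycling mLC touched, so the order between these holds in medians (0.427 and 0.353) and not in every library. With host cluster 2 alone, resident mLC had the highest coefficients of all donor clusters (0.635 to 0.659, the next being cycling mLC at 0.575 to 0.599 and the lowest Hmox1_Mono at 0.516 to 0.540). Of the 100 genes with the highest level, donor library pairs shared 83 to 91, the host cells and a donor library 26 to 31, and host cluster 2 and a donor library 64 to 70.

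**Figure D3:**
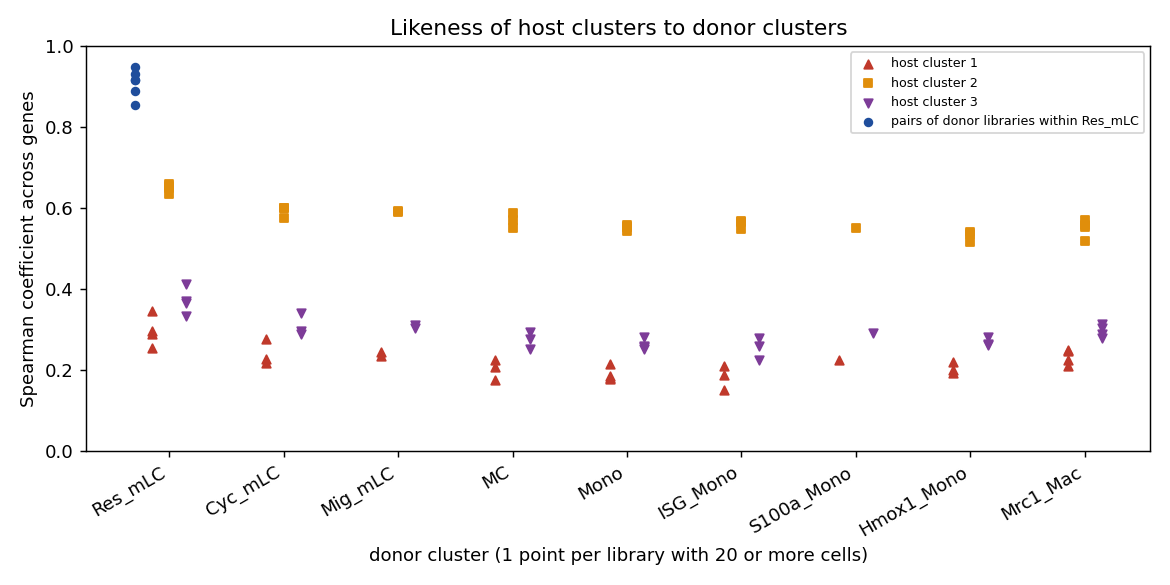
Spearman coefficients across 9270 genes between each of host clusters 1, 2 and 3 and each donor cluster (horizontal axis), with 1 point for each donor library that had at least 20 cells of the cluster, and the 6 pairs of donor libraries within resident mLC as the spread. Cluster 2 reaches 0.635 to 0.659 with resident mLC, and the donor pairs lie at 0.855 to 0.949.

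Both populations had the antigen presentation genes Cd74, H2-Aa, H2-Ab1, H2-Eb1 and Cst3 and the Langerhans cell genes Mfge8, Hpgds and Runx3 among their top 100. They shared 27 genes of their top 100 when the donor libraries were averaged. Ribosomal protein genes made up 40 of the top 100 of resident mLC and 8 of the top 100 of the host cells, all 8 of them among the donor 40. Over the UMIs of all genes that each table lists, ribosomal protein genes took 10.8 to 13.6% in the donor libraries. They took 8.30% in host cluster 2, and 0.597 and 1.36% in host clusters 1 and 3. Malat1, a nuclear non-coding RNA, took 3.78% of the UMIs of host clusters 1 to 3, with 1.88% in cluster 2, 4.62% in cluster 1 and 4.42% in cluster 3. In the keratinocyte libraries it took 0.574 and 0.669%. The donor table does not list Malat1 or mitochondrial genes, so the donor and host shares of ribosomal protein genes have unlike totals.

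Over all genes tested, 1227 were called higher in the host cells (13.2%) and 300 lower (3.24%), so 80.4% of the calls were higher. That split depended on the scaling. With median-ratio scaling, 57.6% of the calls were higher, without rescaling to shared genes 54.1%, with quantile normalization 48.7%, and on means of the deposited natural logs 14.8%. By the second rule, which asks that the host value lie outside all 4 donor values by at least 4-fold, 824 genes were higher (8.89%) and 164 lower (1.77%). With host cluster 2 alone, 543 of 8672 genes were called higher (6.26%) and 55 lower (0.634%). Of the 1227 higher genes 453 (36.9%) were also called with cluster 2 alone, where they made up 83.4% of its 543, and of the 300 lower genes 38 (12.7%) were, making up 69.1% of its 55. With cluster 1 alone 1521 genes were called higher (16.2%) and 669 lower (7.15%), among them 1197 and 299 of the calls above. With cluster 3 alone 1371 were called higher (14.8%) and 513 lower (5.53%), among them 1145 and 283.

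The 12 called genes with the largest positive differences were at or near 0 in resident mLC, or at about 1 CP10K at most, and ranked between 2 and 206 among the shared genes in the host cells. They were Vmn1r13, Npffr1, Gm48657, Il23a, Spry2, Pecam1, Grip2, Ppp1r16b, Lrrc8a, Bmt2, Plce1 and Ctcfl. Il23a (chr10:128296140-128298084), which encodes the p19 subunit of the cytokine interleukin-23, had 2 UMIs in all resident mLC and 1638 in the host cells, a level of 13.6 CP10K. Pecam1, an adhesion receptor of endothelial and myeloid cells, was at 0.015 CP10K in donor replicate 2, 0 in the other donor libraries and 13.1 in the host cells. Spry2, an inhibitor of receptor tyrosine kinase signalling, was at 0, 0.018, 0.036 and 0.0070 CP10K in the donor libraries and 15.2 in the host cells. Bmt2 (chr6:13625675-13677966), which encodes a regulator of the growth-controlling kinase mTORC1, was at 1.01, 0.518, 0.469 and 0.546 CP10K in the donor libraries and at 47.9 in the host cells (difference 6.08, SE 0.41, adjusted p = 8.52e-05 by limma). Vmn1r13, a member of the large family of vomeronasal receptor genes, was at 0.136, 0.094, 0.279 and 0.0037 in the donor libraries and at 39.8 in the host cells (7.60, SE 0.66, adjusted p = 0.000294 by limma). Gm48657, a gene model without an assigned function, had no UMI in resident mLC, which allows up to 0.0022 CP10K (3 UMIs over the group), and was at 15.9 in the host cells.

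These genes were also high in other clusters of the host library. Vmn1r13 was at 39.1, 41.1 and 40.2 CP10K in host clusters 1, 2 and 3, at 42.9 in cluster 4 and 68.2 in cluster 7, and at 5.80 in cluster 5. The keratinocyte libraries, sequenced in another table, had 0.018 and 0.021. Npffr1, which encodes a neuropeptide FF receptor, was at 17.8, 18.7 and 17.1 in clusters 1, 2 and 3 and at 2.60 in cluster 5, with 0.0006 and 0.0004 in the keratinocyte libraries. Il23a followed the same order, with 13.1, 14.6 and 13.9 in clusters 1 to 3, 1.30 in cluster 5 and 0.0020 and 0.0053 in the keratinocyte libraries. Host cluster 5 was above both keratinocyte libraries for each of these genes. Cluster 5 held only 43 cells, at medians of 35812 UMIs and 6432 genes per cell. The keratinocyte libraries held 2836 and 2590 cells, at medians of 8895.5 and 8834 UMIs. Subtracting the difference between cluster 5 and the keratinocyte libraries from that between host cells and resident mLC left 427 genes called higher (4.61%) and 214 lower (2.31%). Of the 12 genes, Vmn1r13, Grip2 and Bmt2 were no longer called on that scale, and Vmn1r13 fell from a difference of 7.60 to 1.97.

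The 12 called genes with the largest negative differences were Ly6a, Ifi27l2a, Crip1, C1qb, Lyz2, Tgfbi, Ifi30, C1qc, Ctss, Aif1, Bst2 and Lgals3bp. Ly6a (chr15:74994877-74998031), which encodes the surface antigen Sca-1 and is induced by interferons, was at 10.6, 7.77, 3.75 and 5.40 CP10K in the donor libraries and at 0.122 in the host cells (-4.87, SE 0.54, adjusted p = 0.000869 by limma). All 3 host clusters were below every donor library, at 0.036, 0.438 and 0.063 in clusters 1 to 3. Host cluster 5 held 7.79 and the keratinocyte libraries 8.83 and 10.8, so the gene was detected in the same host library. At the common depth, 73.8, 56.6, 42.6 and 42.6% of resident mLC and 1.15% of host cells held a UMI of Ly6a. Crip1, which encodes a small zinc-binding LIM protein, was at 18.5, 39.7, 45.4 and 34.4 in the donor libraries and at 1.44 in the host cells (-4.42), with 38.3 in host cluster 4.

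C1qb, C1qc, Lyz2, Ifi27l2a and Bst2 were among these 12. C1qb, a chain of complement C1q, was at 4.87, 4.79, 2.86 and 5.46 in the donor libraries and at 0.192 in the host cells (-3.94, SE 0.38, adjusted p = 0.000482 by limma). Lyz2, which encodes lysozyme M, was at 1.24, 1.31, 1.91 and 2.15 and at 0.026 in the host cells (-3.76). Ifi27l2a, an interferon-induced gene, was at 11.1, 8.02, 3.55 and 4.12 and at 0.180 in the host cells (-4.45). Bst2, whose product tethers viruses to the cell surface and whose promoter stretch is shown above, was at 3.48, 2.45, 1.92 and 1.85 and at 0.159 in the host cells (-3.24, SE 0.39, adjusted p = 0.00119 by limma), while host cluster 6 held 8.73. Of the 12 genes, Ifi30, Ctss and Bst2 were not called with host cluster 2 alone, where their differences were -1.63, -1.70 and -1.91. The other 9 were called with cluster 2 as well. In donor monocytes, mean levels were 22.4 for C1qb, 14.0 for C1qc, 128 for Lyz2, 22.1 for Ifi27l2a and 3.06 for Bst2. Mrc1+ macrophages held 39.6, 29.6, 31.8, 6.63 and 2.53 in the same order. The resident mLC means were 4.49, 2.84, 1.65, 6.70 and 2.42. The part of RNA of such cells in the resident mLC levels was not tested.

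**Figure D4:**
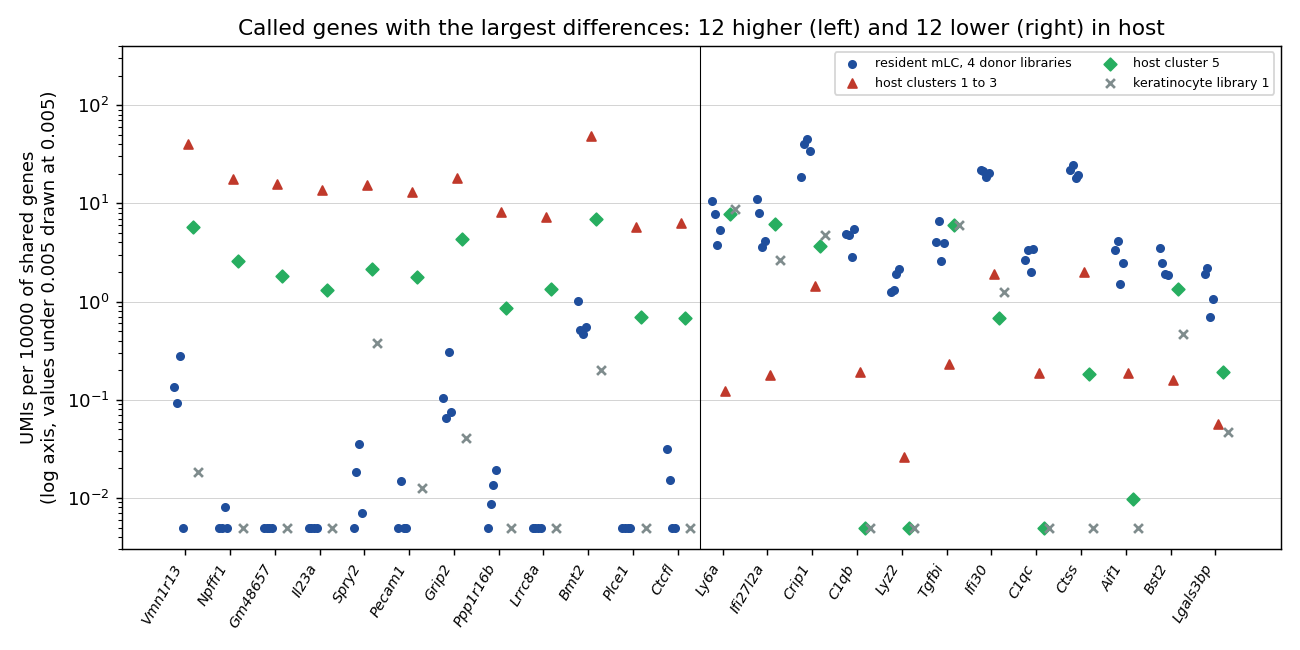
Levels in UMIs per 10000 of shared genes (log axis, values under 0.005 drawn at 0.005) of the 12 called genes with the largest positive (left) and the 12 with the largest negative (right) differences, in the 4 donor libraries, host clusters 1 to 3, host cluster 5 and keratinocyte library 1. The host triangles lie above every donor point on the left and below every donor point on the right, and host cluster 5 lies between host clusters 1 to 3 and the donor libraries for each gene on the left.

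Centring each gene on genes of similar length gave 616 genes called higher (6.76%) and 383 lower (4.2%). Calls that held in each of the 3 host clusters alone, after centring genes of similar length, and relative to the keratinocytes of both tables numbered 136 higher and 31 lower. The lower genes included Ly6a, Ifi27l2a, Crip1, C1qb, Lyz2, Tgfbi, C1qc, Aif1, Lgals3bp, Spp1, Unc93b1, Ifit3 and Dcstamp. Among them were Tgfbi, an extracellular matrix protein induced by TGF-beta, at 4.04, 6.62, 2.56 and 3.98 CP10K in the donor libraries and 0.228 in the host cells, and Aif1, an actin-binding protein of macrophages, at 3.35, 4.14, 1.49 and 2.47 and 0.188. The higher genes included Npffr1, Il23a, Spry2, Pecam1, Ciita and the Y-linked Ddx3y. These examples were chosen after their values were seen, other than those the rule for named genes gave.

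Among the antigen presentation genes, the class II transactivator and the class II chains went opposite ways. Ciita (chr16:10480014-10531064) was at 0.321, 0.121, 0.344 and 0.142 CP10K in the donor libraries and at 13.7 in the host cells (5.45, SE 0.48, adjusted p = 0.000325 by limma). All 3 host clusters lay above every donor library, with 14.9, 7.92 and 15.3 in clusters 1 to 3, and the gene was called with cluster 2 alone (4.66). A UMI of Ciita was found at the common depth in 5, 2.17, 0 and 1.84% of resident mLC and in 86.8% of host cells (exact interval 82.8 to 90.2%). The 0 of 47 cells in donor replicate 3 allows a share of up to 6.38%. The keratinocyte libraries gave 0 and 0.077%. Without thinning the donor shares were 12.4, 7.74, 19.6 and 8.44% and the host share 85.4%.

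The class II chains themselves were abundant in both populations and lower in the host cells. H2-Ab1 (chr17:34263227-34269418), the beta chain of I-A, was at 210, 201, 196 and 202 CP10K in the donor libraries, with little spread, and at 31.8 in the host cells (-2.66, SE 0.16, adjusted p = 4.63e-05 by limma). H2-Eb1, whose promoter stretch is shown above, was at 139, 128, 142 and 147 and at 29.8 in the host cells (-2.22, SE 0.17). Cd74, which encodes the invariant chain that guides class II molecules to endosomes, was at 331, 288, 488 and 502 and at 72.9 in the host cells (-2.42, SE 0.35). H2-DMa, a subunit of the peptide editor H2-DM, was at 21.8, 23.3, 19.0 and 20.9 and at 4.87 in the host cells (-2.10). H2-Aa, the alpha chain of I-A, was at 128, 146, 142 and 163 and at 43.0 in the host cells, and its difference of -1.74 did not pass the threshold of size.

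Host cluster 2 was closer to the donor libraries for each of these chains. H2-Ab1 was at 92.0, 13 and 24.4 CP10K in clusters 2, 1 and 3, Cd74 at 228, 26.3 and 50.7, and H2-Eb1 at 87.5, 12.5 and 21.3. With cluster 2 alone the differences were -1.13, -0.78 and -0.66, and 0 of the class II genes were called lower. At the common depth, a UMI of H2-Ab1 was found in 100% of resident mLC of each library and in 89.1% of host cells. Over the list, 1 of 10 members tested was called higher (Ciita) and 4 lower, where 13.2% and 3.24% of all genes were. Further, 8 of 10 lay below the donor range and 2 above it, where 26% and 53.1% of all genes did. The median difference was -1.79, and -0.63 with cluster 2 alone. Of the genes that define the sort, Itgam, which encodes CD11b, was at 0.034 to 0.068 in the donor libraries and at 0.705 in the host cells (2.48, called, but 1.47 with cluster 2 alone and 1.62 after centring genes of similar length, neither called), and Ptprc, which encodes CD45, was at 6.52, 6.95, 3.31 and 4.47 and at 11.6 (1.18, not called).

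Of the class I and cathepsin lists, 2 and 4 members were called lower in the host cells, and with host cluster 2 alone 0 of these were called by limma. H2-D1, a class I heavy chain, was at 29.1, 21.4, 19.1 and 22.4 CP10K in the donor libraries and at 3.50 in the host cells (-2.66, SE 0.27, called), while H2-K1, the other class I heavy chain, was at 28.4, 26.7, 12.9 and 15.7 and at 10.0 (-0.97, not called). Pdia3, a chaperone of class I loading, was called (-2.45). Of the 11 class I members tested 2 were called lower and 0 higher, with a median of -1.09 (-0.73 with cluster 2). In the cathepsin list, 4 of 11 were called lower and 0 higher, with a median of -1.73 (-1.19 with cluster 2). Beside both lists, 3.24% of all genes tested were called lower and 13.2% higher. Ctss, the protease that trims the invariant chain, was at 21.6, 24.8, 18.1 and 19.6 in the donor libraries and at 2.01 in the host cells (-3.31, SE 0.24, adjusted p = 0.000127 by limma). Ifi30, a reductase that opens disulphide bonds of antigens in lysosomes, was at 22, 21.4, 18.4 and 20.5 and at 1.93 (-3.35). Cst3, a cathepsin inhibitor, was at 232, 199, 195 and 225 and at 36.2 (-2.55), with 129 in cluster 2. Ctsz was also called (-2.12). For Ctss and Ifi30 host cluster 2 had 6.34 and 6.58, above clusters 1 and 3 and below every donor library.

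In the type I interferon list 3 of 15 members tested were called lower (Bst2, Ifit3 and Rtp4), where 3.24% of all genes were, and 0 higher, with a median of -0.92 (-0.75 with cluster 2). Of these 3, only Ifit3 was also called with cluster 2 alone. Ifit3, which encodes an antiviral protein and whose promoter stretch is shown above, was at 0.803, 0.345, 0.660 and 0.609 CP10K in the donor libraries. It was at 0.017 in the host cells, which is 3 UMIs. Rtp4, another interferon-induced gene, was at 0.666 to 1.01 in the donor libraries and at 0.060 in the host cells. Ifit2 had no UMI in the host cells, which allows up to 0.017 CP10K, and was at 1.00, 0.589, 0.143 and 0.291 in the donor libraries, but did not pass the test (adjusted p = 0.0527 by limma). In the interferon-gamma list 1 of 13 was called higher, the GTPase Irgm1, where 13.2% of all genes were, and 0 lower, and the median was -0.21. Irgm1 was at 0.014 to 0.064 in the donor libraries and at 0.517 in the host cells, and its difference of 2.11 turned to -1.27 relative to the keratinocytes of both tables.

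Transcription factors of Langerhans cells were in both populations. Runx3 was at 14.9, 10.2, 13.6 and 11.7 CP10K in the donor libraries and at 28.5 in the host cells, with 14.4 in cluster 2, inside the donor range, and 31.9 and 31.8 in clusters 1 and 3. Spi1 was at 8.14, 7.61, 8.75 and 9.62 and at 2.74 in the host cells, with 6.25 in cluster 2. Id2 was at 11.4, 8.93, 11.1 and 10.2 and at 7.94, and Ahr, the aryl hydrocarbon receptor, at 3.86, 2.60, 1.86 and 2.72 and at 5.34. None of these 4 was called. Zeb2, a factor of monocytes and macrophages, was at 0.673, 0.408, 0.036 and 0.098 and at 0.327, within the donor range. Of the 20 factors tested, Zeb1, a repressor of epithelial genes, and Nr4a3, an orphan nuclear receptor of migrating dendritic cells, were called higher and 0 lower. Among all genes tested, 13.2% were called higher and 3.24% lower. Zeb1 was at 0.558, 0.750, 0.312 and 0.537 in the donor libraries and at 4.28 in the host cells (2.82, SE 0.42, adjusted p = 0.00283 by limma), and Nr4a3 at 0.0957, 0.172, 0.161 and 0.0069 and at 1.02 (2.51). After centring genes of similar length neither was called (1.60 and 1.65), and with cluster 2 alone Nr4a3 was called and Zeb1 was not.

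Of the receptor and signalling genes of pathways that maintain Langerhans cells, Csf2rb and the Notch coactivator Maml1 were called higher in the host cells. Csf2rb (chr15:78325800-78351001), the beta chain shared by the receptors for GM-CSF, interleukin-3 and interleukin-5, was at 0.198, 0.195, 0.378 and 0.184 CP10K in the donor libraries and at 4.12 in the host cells (3.67, SE 0.39, adjusted p = 0.000697 by limma). The host clusters held 4.59, 3.45 and 3.78, all above the donor range, and the keratinocyte libraries 0. Csf1r, the receptor for interleukin-34 and CSF-1, was at 3.92, 5.84, 6.29 and 4.52 and at 4.31, within the donor range. Of the TGF-beta and BMP list 0 of 13 members tested were called in either direction by limma (2 had an unadjusted p under 0.05, both higher), with a median of 0.41. Of these 13, 8 lay above the donor range and 2 below, where 53.1% and 26% of all genes did. The receptor gene Tgfbr1 was at 1.69, 1.63, 1.21 and 1.67 and at 1.83 in the host cells, and Tgfbr2 at 0.415, 0.653, 0.340 and 0.341 and at 0.465. Of the Notch list 1 of 7 was called higher and 0 lower, where 13.2% and 3.24% of all genes were. The called gene was Maml1, at 0 to 0.012 CP10K in the donor libraries and 0.617 in the host cells. Its difference of 2.76 was 1.90 after centring genes of similar length and 1.96 relative to the keratinocytes of both tables, and it was called on neither scale.

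Markers of monocytes went in both directions, and the called markers of macrophages were lower in the host cells. Of the monocyte list 3 of 9 members tested were called lower (Lyz2, S100a6 and Ms4a6c) and 1 higher (Itgam). Of these calls only that of Lyz2 held with cluster 2 alone. Of all genes, 3.24% were called lower and 13.2% higher. In the list, 4 members lay above the donor range and 4 below, where 53.1% and 26% of all genes did. The list median was -0.67, but 0.20 after centring genes of similar length and 1.03 relative to the keratinocytes of both tables. Its sign changed under 5 of 22 alternatives. S100a6, a calcium-binding protein, was at 66.2, 104, 73.6 and 69.3 CP10K in the donor libraries and at 9.89 in the host cells, of which cluster 2 had 37.1. Ccr2, the receptor by which monocytes leave the marrow, was at 0.027, 0.036, 0 and 0.086 and at 0.347 (1.74, not called). Of the macrophage list 3 of 11 were called lower, all of them chains of C1q, and 0 higher, with a median of -1.07 (-1.20 with cluster 2). C1qa was at 7.09, 8.18, 2.78 and 7.27 and at 0.670 in the host cells, and it was not called with cluster 2 alone. Of the Fc receptor list 1 of 4 was called lower, the signalling chain Fcer1g, at 14.4 to 16.8 in the donor libraries and 1.93 in the host cells and not called with cluster 2 alone, and of the Toll-like receptor list 1 of 4, Unc93b1, which carries these receptors to endosomes. The 10 C-type lectin genes tested gave 0 calls by limma in either direction, although 1 higher and 5 lower members had an unadjusted p under 0.05, with a median of -1.26.

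**Figure D5:**
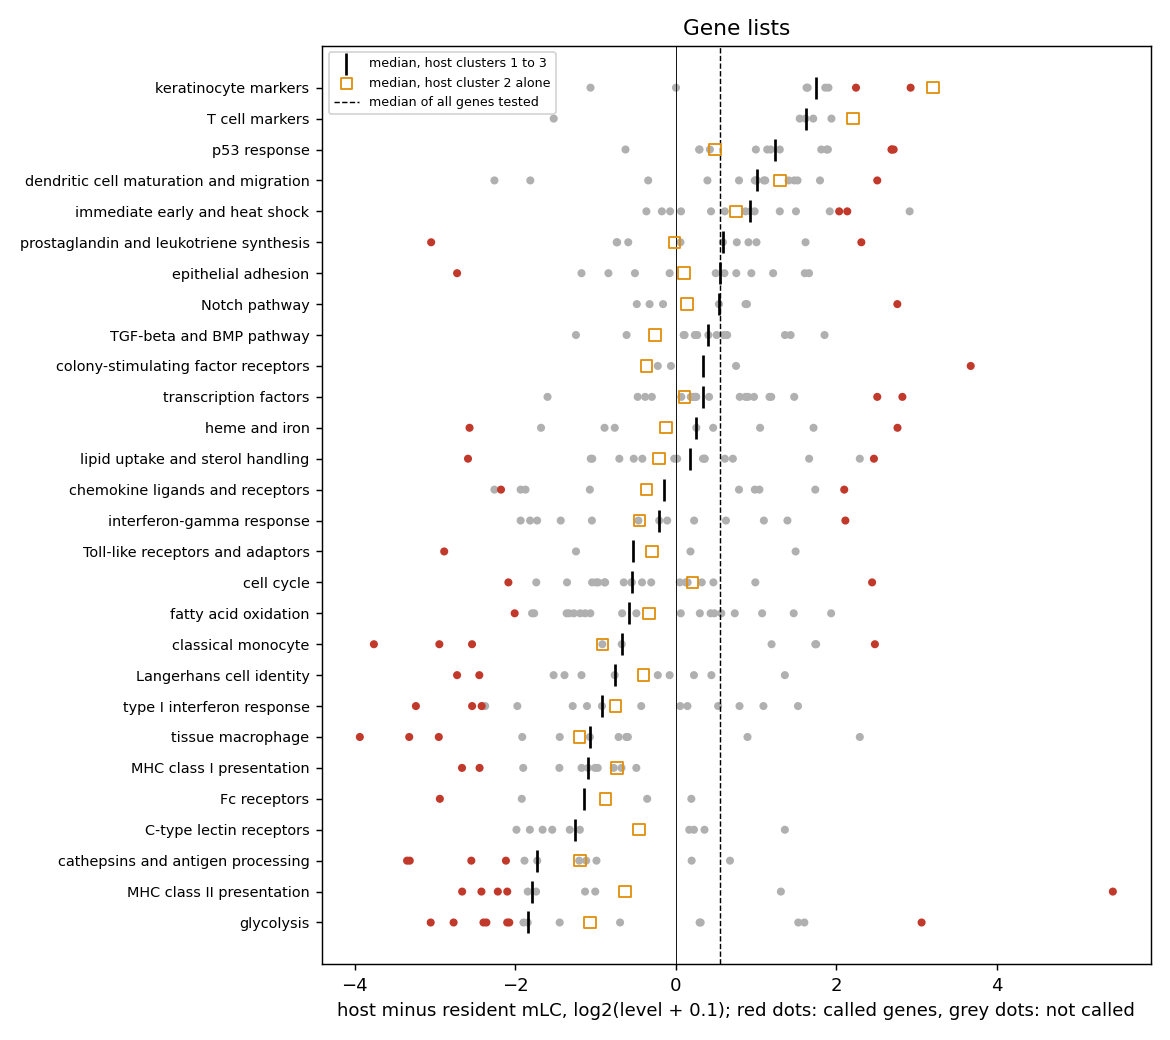
Differences between host clusters 1 to 3 and resident mLC in log2(CP10K + 0.1) for the tested members of 28 gene lists (grey dots, called genes in red), with the list medians for host clusters 1 to 3 (black bars) and for host cluster 2 alone (orange squares), and the median of all genes tested, 0.56 (dashed line). The lowest medians are those of glycolysis, MHC class II presentation and cathepsins, and for these the median with cluster 2 lies nearer to 0.

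Of 15 glycolysis genes tested, 6 were called lower (Aldoa, Pgk1, Pgam1, Eno1, Pkm and Ldha) and 1 higher (Gapdh), and the median was -1.85 (-1.07 with cluster 2). Among all genes tested, 3.24% were called lower and 13.2% higher. With cluster 2 alone none of these 6 lower genes was called by limma, their differences being -1.03 to -1.94, and only Pgk1, Pgam1 and Eno1 of them were called relative to the keratinocytes of both tables. Ldha, which encodes lactate dehydrogenase A, was at 9.07, 8.75, 11.7 and 10.9 CP10K in the donor libraries and at 1.39 in the host cells (-2.77, SE 0.25, adjusted p = 0.000352 by limma). Pgk1 was at 3.20, 3.29, 4.18 and 3.26 and at 0.329 (-3.05). Gapdh was at 0.432, 0.174, 0.259 and 0.189 in the donor libraries and at 2.83 in the host cells, a difference of 3.06 that turned to -2.88 relative to the keratinocytes of both tables. The keratinocyte libraries held 0.056 and 0.060 and host cluster 5 held 9.64. Of 20 fatty acid oxidation genes 1 was called lower (Acaa2) and 0 higher, with a median of -0.58, and Acaa2 was not called with cluster 2 alone.

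Genes for the synthesis of prostaglandins and leukotrienes, lipid mediators of inflammation, went in both directions. Alox5ap, the activating protein of 5-lipoxygenase, was at 13.1, 14.7, 20.2 and 19.6 CP10K in the donor libraries and at 1.92 in the host cells (-3.05, SE 0.30, adjusted p = 0.000554 by limma). Hpgds, the haematopoietic prostaglandin D synthase, was at 14.6, 10.7, 12.1 and 12.3 and at 38.1 in the host cells, above every donor library, with a difference of 1.62 that did not pass the threshold of size. Ptgs1, the constitutive cyclooxygenase, was at 6.83, 8.32, 4.96 and 7.27 and at 13.6 (1.00, not called), and Alox5 itself was at 3.22, 4.67, 4.08 and 4.72 and at 4.30, within the donor range. Tbxas1, thromboxane synthase, was called higher (2.31), so 1 of 11 was called in each direction, where 13.2% of all genes were called higher and 3.24% lower. Tbxas1 was not called with cluster 2 alone (1.18), after centring genes of similar length (1.09) or relative to the keratinocytes of both tables (1.65), and Alox5ap was not called with cluster 2 alone (-1.50).

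Of the p53 response list 3 of 14 members tested were called higher (Trp53inp1, Ei24 and Tnfrsf10b) and 0 lower, with a median of 1.24 (0.49 with cluster 2). Of all genes tested, 13.2% were called higher and 3.24% lower, with a median of 0.56 (0.11 with cluster 2). Trp53inp1, a p53-induced regulator of cell death and autophagy, was at 0.181, 0.347, 0.093 and 0.310 CP10K in the donor libraries and 1.97 in the host cells. Ei24 turned from 2.69 to -0.47 relative to the keratinocytes of both tables, where Tnfrsf10b was not called either (1.05), and Trp53inp1 was not called with cluster 2 alone (1.95). Of the immediate early and heat shock list 2 of 15 were called higher (Egr1 and Hspa8) and 0 lower, near the 13.2% called higher among all genes. Hspa8 turned from 2.14 to -2.56 relative to those keratinocytes. Egr1 was called neither on that scale (1.73) nor with cluster 2 alone (1.32). Egr1, an early transcription factor, was at 1.38, 1.04, 2.24 and 0.555 and at 5.11, while Fosb was at 3.52, 0.754, 0.345 and 1.08 and at 8.40 without passing the test (adjusted p = 0.0586 by limma). Of the maturation and migration list 1 of 15 was called higher (Nr4a3) and 0 lower, and Ccr7, the receptor that guides cells to lymph nodes, was at 0, 0.026, 0 and 0 and at 0.037. Of the cell cycle list 1 of 20 was called in each direction (Ube2c higher, Ccnb2 lower), neither of them relative to the keratinocytes of both tables, and Mki67, a marker of proliferating cells, was at 1.81, 1.04, 0.469 and 1.04 and at 1.26.

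In the remaining lists, 1 of 16 lipid handling genes was called in each direction (Lpl higher, Npc2 lower), as was 1 of 9 heme and iron genes (Slc11a1 higher, Fth1 lower). All genes tested gave 13.2% called higher and 3.24% lower. Of the 10 chemokine ligand and receptor genes tested, 1 was called higher and 1 lower. The lower gene was Ccr1, a receptor for inflammatory chemokines, at 1.64, 1.82, 1.38 and 1.78 CP10K in the donor libraries and at 0.286 in the host cells, and it was also called with cluster 2 alone but not after centring genes of similar length (-1.83). Fth1, the heavy chain of the iron store ferritin, was at 51.2, 48.0, 47.3 and 46.3 and at 8.03, with 26.2 in cluster 2, where it was not called, and neither was Npc2.

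Keratinocyte markers were low in both populations and higher in the host cells, with the highest host level in cluster 2. The summed level of the 8 keratinocyte markers tested was 0.884 to 2.09 CP10K in the donor libraries and 6.26 in the host cells. It was 16.9 in cluster 2, 3.12 in cluster 1 and 4.65 in cluster 3. Krt14, a keratin of basal keratinocytes, was at 0.274, 0.565, 0.126 and 0.478 and at 3.12 in the host cells, against 345 and 347 in the keratinocyte libraries. Krt14 and Krt5 were the called members, 2 of 8 tested, both higher, where 13.2% of all genes were called higher. At the common depth, a UMI of Krt14 was found in 1.25, 5.69, 4.25 and 1.47% of resident mLC, in 26.1% of host cells and in 96.7 and 96.8% of keratinocytes. The 5 T cell markers tested summed to 0.260 to 0.579 in the donor libraries and to 1.06 in the host cells (2.59 in cluster 2). Of these 5, 0 were called by limma, with 4 higher and 1 lower at an unadjusted p under 0.05. The 3 mast cell and neutrophil markers tested summed to 0.169 to 1.14 in the donor libraries and to 0.448 in the host cells, within the donor range. Of these 3, 0 were called by limma and 1, higher, had an unadjusted p under 0.05. Dct, a melanocyte gene, was at 0 to 0.021 in the donor libraries and at 0.807 in the host cells and was called, the 1 member of its list with a test, but not relative to the keratinocytes of both tables. None of the red blood cell genes was listed in both tables. The part of free RNA of other cells in these levels was not tested.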

How the data were processed

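RNA of sorted epidermal cells was measured by droplet sequencing in 7 libraries, of which the 4 donor myeloid libraries and the host myeloid library were compared and the 2 keratinocyte libraries served as a reference. Expression values were deposited by the authors as the natural log of 1 plus UMIs per 10000 of the cell, and mitochondrial shares were deposited as percent. The submitters' processing notes name kallisto, bustools, Seurat and GRCm38, without versions. The study's methods state that cells under 500 genes or above 20% mitochondrial UMIs and doublets called by DoubletFinder were left out, yet the host table still held such cells, and doublets were not looked for again. The deposited clusters were used as they stand.

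UMIs were recovered from the deposited natural logs, and 100% of values came out whole within 0.001. Each cell was rescaled to 10000 UMIs of the shared genes, and cells were averaged per library. The test was limma 3.58.1 (trend and robust, statmod 1.5.0, R 4.3.3) on log2(CP10K + 0.1), with Benjamini-Hochberg adjustment over all 9270 genes tested. The study compared cells at the same thresholds of size and adjusted p, and libraries were used here because cells are not replicates. On simulated data of 9270 genes with 200 changed 8-fold in this comparison, 67% were recovered and 0 unchanged genes were called. The simulated host library was drawn from the donor means with the same spread, without any difference by table or gene length. It therefore cannot show how many calls in the real data stem from such differences. Gene lengths, promoters and coordinates came from RefSeq on GRCm38.p6. Intervals are exact Clopper-Pearson at 95%. How reads shared by near-identical genes (the Vmn1r, Ly6 and class I families, Gapdh and its pseudogenes) were counted in each table is not given in the sources used here. The labels and headers name no batch for the host library, so no value within a batch can be given.

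Named are the 12 genes with the largest difference in each direction among called genes outside the donor range, and members of 33 gene lists that were called or define their list. Results for a few list members are not reported here. The members, lists and tests were chosen with earlier results of these data known. Alternatives covered pseudocounts, filters, scalings, single host clusters, thinning and each donor library left out. Python 3.11.15, NumPy 2.4.6, pandas 2.3.3, SciPy 1.17.1 and matplotlib 3.10.9 were used.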

Additional observations from a re-analysis of the deposited data

Results flagged for a closer look

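Genes outside those shared with the donor table took 35.36% of the UMIs of host clusters 1 to 3, which the comparison does not use, against 10.5 and 10.8% in the keratinocyte libraries. Host cluster 5 stood at 15.9% and host cluster 2 at 25.6%. No explanation of this share was tested.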

How the results depend on the processing

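The comparison gave 1227 genes called higher and 300 lower, 824 and 164 outside the donor values by 4-fold, and a median Spearman coefficient of 0.427 between the host cells and the donor libraries. In the same order, a pseudocount of 1 gave 88, 43, 66 and 25, and one of 0.01 gave 1890, 504, 1490 and 328. Means of the deposited natural logs gave 21, 121, 18 and 74. Median-ratio scaling gave 754, 555, 504 and 345 (coefficient 0.393), no rescaling 631, 535, 416 and 354 (0.364), and quantile normalization 709 called higher and 747 lower. Host cluster 2 alone gave 543, 55, 377 and 21 (0.605). Host cluster 1 alone gave 669 called lower and 528 outside lower (0.298), and cluster 3 alone 513 and 368 (0.363). A filter at 0.5 CP10K gave 676 called higher and 437 outside higher (0.0509), and no filter a coefficient of 0.691. Centring genes of similar length gave 616 called higher and 409 outside higher (0.496), and subtracting the keratinocyte difference between the tables gave 427 and 248 (0.651). Both of these were chosen after seeing the data, as were the shares without thinning. Summed UMIs gave 174 called lower and 89 outside lower, host cells under 500 genes included 115 and 62 (0.488), and thinning to 2000 UMIs gave 264 outside lower (0.317). Leaving out each donor library in turn gave 1151 to 1310 called higher, 287 to 316 lower, 862 to 993 and 173 to 199 outside, and coefficients of 0.422 to 0.429. Irgm1 (-1.27), Hspa8 (-2.56), Ei24 (-0.47) and Gapdh (-2.88) reversed relative to the keratinocytes of both tables. No other named gene that was called in the main comparison reversed under any alternative run. Among the genes not called there, only those that define a list or cell type were followed across the alternatives. Of these, 1, Cd207, changed sign under some alternatives, such as host cluster 1 alone, host cluster 3 alone and median-ratio scaling. Other uncalled genes with values above were not followed in this way. The cause of these changes was not tested, other than fewer cells or genes where the alternative removes them.

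Medians of the identity, class I, class II, cathepsin, glycolysis and macrophage lists kept their sign under every alternative run, and those of the type I interferon list changed it under 1 of 22. No paired analysis was possible because the host has 1 library, and the labels do not link it to any donor library. Depth limits genes near 0 in the host cells, where 3 UMIs over the group stand for 0.017 CP10K, against 0.0022 in resident mLC.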
